A study of Brassica oleracea var. capitata with 6 samples.

Results

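The lncRNAs described here are the well expressed transcripts that stood alone at their locus in the lncRNA table of cabbage leaves. Members were chosen by their mean FPKM over all 6 libraries, which had to be at least 1, by their locus having exactly 1 row in the table, and by a locus number outside the stretch that starts at 80000 and ends before 85000. Of 4459 lncRNA transcripts from 3061 loci, 2485 were alone at their locus, 156 of these reached a mean FPKM of 1, and 6 of these fell in the excluded number range, which left 150 members. FPKM divides the fragments of a transcript by its length in kilobases and by the mapped fragments of its library, so it can be compared between transcripts of unequal length. Because the mean FPKM chose the members, their level and the detection that goes with it are given as a description and were not tested.

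The libraries came from leaves of *Brassica oleracea* var. *capitata* at the harvesting stage, 3 from *nwgl* plants and 3 from wild-type plants. *nwgl* is a non-wax glossy plant found in the inbred line G287, whose phenotype is inherited as a dominant trait from a single locus at the end of chromosome C08, and the wild-type plants have the normal waxy leaf. The causal sequence change was not known in the study, so *nwgl* stands for a genotype and not for the loss of a named gene, and all comparisons rest on 1 mutant origin. The labels call the 3 libraries of a genotype biological replicates without saying whether each came from 1 plant or from a pool.

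Long non-coding RNAs are transcripts without a recognisable protein-coding frame that plants make from intergenic DNA, from introns and from the strand opposite to genes. Some act on chromatin or transcription near their own locus, some serve as precursors or decoys of small RNAs, and for most no role is known. As a class they tend to be expressed at lower levels and in fewer tissues than coding genes. The deposited tables used here name every member by an assembly number only, and positions and sequences were not analysed here, so no function is assigned to any of them below.

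The number of rows did not make every member the only transcript of its locus. The last part of an identifier is the transcript number within the assembled locus, and it was 1 in 121 members (80.7%) and above 1 in 29 (19.3%), 16 of which had the number 2 and 1 the number 28. Those 29 loci therefore had other assembled transcripts that the lncRNA table does not list. A number of 1 does not show that a locus had no further transcript, so 29 is a minimum. Their level was close to that of the other members, with a median of the mean FPKM of 1.95 in the 29 and 2.03 in the 121. Fewer of them were above 0 in all 6 libraries, 19 of 29 (65.5%) against 99 of 121 (81.8%). The median spread between libraries of a genotype was 0.932 log2 units in the 29 and 0.776 in the 121. The members are therefore called lncRNAs alone at their locus in the table, not transcripts of single-transcript loci.

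Across libraries the lncRNA values differed more than the depth did. Relative depth was read from the ratio between 2 libraries that recurred most often among genes under 0.3 FPKM in both. Between 24 and 48 genes per pair of libraries stood at that ratio or a simple multiple of it, against a median of 2 elsewhere. Relative depth lay between 0.949 and 1.02 in the *nwgl* libraries and between 0.893 and 1 in the wild-type libraries, with wild-type replicate 1 set to 1. Median-of-ratios size factors over lncRNAs lay between 0.985 and 1.07 in *nwgl*, but were 0.668, 1.38 and 1.04 in wild-type replicates 1, 2 and 3. Over genes the factors were 0.905, 1.26 and 0.874 in *nwgl* and 1.03, 1.24 and 0.791 in wild-type, so gene values too differed more than depth, and wild-type replicate 2 was high in both. Wild-type replicate 1 was low in its lncRNAs and not in its genes. The spread, the number of calls and the non-overlap are given with and without it. As a check of the genotype labels, *Bol018504*, which encodes the alkane-forming wax enzyme CER1, had 5.20, 5.09 and 5.97 FPKM in *nwgl* leaves, against 114, 142 and 44.0 FPKM in wild-type leaves.

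Levels were low in most members and very high in a few. The median of the mean FPKM was 2.02, and the range ran from 1.01 to 119. There were 74 members between 1 and 2 FPKM, 50 between 2 and 5, 12 between 5 and 10, 13 between 10 and 100, and 1 above 100. Members made up 46.2% of the 325 lncRNAs with a mean FPKM of at least 1, and 6 of the 10 and 26 of the 50 most abundant lncRNAs. Per library they held 32.1 to 39.9% of the summed lncRNA FPKM. The 10 most abundant members alone took 44.0 to 65.2% of the members' summed FPKM, so that sum mostly reflects these few. At the edge of the rule, MSTRG.11996.1, MSTRG.9086.2 and MSTRG.77177.1 each had a mean FPKM of 1.01, while MSTRG.27243.4, MSTRG.69289.1 and MSTRG.7106.1, left out for their level, had 0.977, 0.977 and 0.960.

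The most abundant member, MSTRG.52576.1, had 99.8, 117 and 90.3 FPKM in *nwgl* leaves, against 60.3, 179 and 168 FPKM in wild-type leaves. Its genotypes overlapped, since wild-type replicate 1 lay below and the other wild-type libraries above all *nwgl* libraries. MSTRG.67720.1 had 123, 93.2 and 98.5 FPKM in *nwgl* leaves, against 43.9, 64.5 and 49.1 FPKM in wild-type leaves. All *nwgl* values lay above all wild-type values, but limma with Benjamini-Hochberg adjustment gave an adjusted p of 0.330 for a log2 fold change of 1.01 ± 0.44 (standard error). Here and below, fold changes are *nwgl* minus wild-type on the log2(FPKM + 0.1) scale, which understates changes of low values, and a lncRNA was called when its adjusted p was under 0.05 and its log2 fold change was 1 or more in size. MSTRG.39582.4 had 45.9, 24.4 and 39.0 FPKM in *nwgl* leaves, against 66.3, 81.7 and 131 FPKM in wild-type leaves. Here all *nwgl* values lay below all wild-type values, and limma gave -1.34 ± 0.50 (log2 fold change ± standard error) with an adjusted p of 0.245.

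Of the next 4 members, the genotypes overlapped in MSTRG.55088.1 and MSTRG.40869.1 and did not in MSTRG.19138.1 and MSTRG.78697.1. MSTRG.55088.1 had 35.5, 24.2 and 35.7 FPKM in *nwgl* leaves, against 57.4, 51.2 and 18.6 FPKM in wild-type leaves. MSTRG.40869.1 had 19.6, 31.4 and 13.1 FPKM in *nwgl* leaves, against 26.8, 24.4 and 6.39 FPKM in wild-type leaves. Wild-type replicate 3 held the lowest value of both. MSTRG.19138.1 had 14.5, 12.9 and 13.7 FPKM in *nwgl* leaves, against 17.2, 35.3 and 26.8 FPKM in wild-type leaves. MSTRG.78697.1 had 18.5, 9.13 and 11.1 FPKM in *nwgl* leaves, against 24.5, 22.8 and 21.6 FPKM in wild-type leaves. Their *nwgl* values were all lower, with a log2 fold change of -0.89 for each and an adjusted p of 0.479 in limma.

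The high mean of 3 of the 10 most abundant members came from 1 or 2 libraries. MSTRG.57741.1 had 0.0120, 0.164 and 0.0356 FPKM in *nwgl* leaves, against 22.9, 0.0439 and 193 FPKM in wild-type leaves. Only wild-type replicates 1 and 3 held more than a trace, and wild-type replicate 2 was within the *nwgl* range. MSTRG.57743.1, whose locus number differs by 2, had 2.47, 8.34 and 4.10 FPKM in *nwgl* leaves, against 21.1, 4.69 and 105 FPKM in wild-type leaves, and was highest in the same library. The log2 fold changes were -5.76 (standard error 2.04, adjusted p 0.215 in limma) for MSTRG.57741.1 and -2.29 (standard error 1.01, adjusted p 0.331) for MSTRG.57743.1. Without wild-type replicate 2, MSTRG.57741.1 was called, at -8.71 with an adjusted p of 0.0224 in limma. The other fits that left out a library did not call it. MSTRG.45216.2 had 67.9, 0 and 21.6 FPKM in *nwgl* leaves and was listed at 0 in all wild-type libraries. It was not called (adjusted p 0.191 in limma), but was without *nwgl* replicate 2, the library listed at 0 (adjusted p 0.0219). No other fit that left out a library called it. Leaving out the library that departs from its group lowers the spread by itself, so these calls are not read as differences. None of the 10 most abundant members was called, although 9 were above 0 in all 6 libraries.

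**Figure D1:**
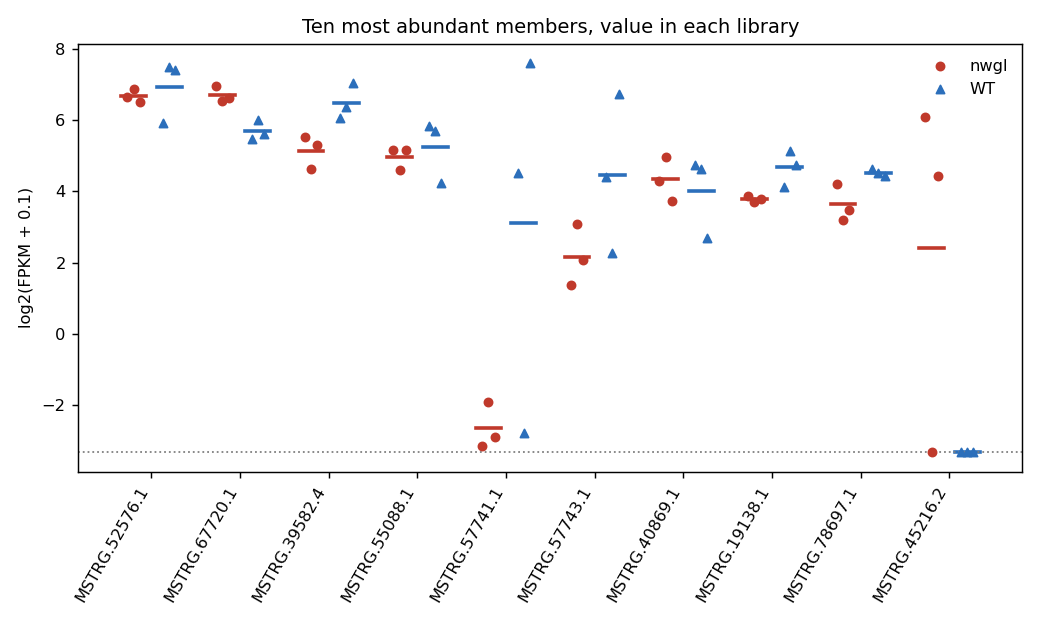
Level of the 10 most abundant members in each library, as log2(FPKM + 0.1), with *nwgl* libraries as red circles and wild-type libraries as blue triangles; short bars are means of the log2 values over 3 libraries and the dotted line is an FPKM of 0. MSTRG.57741.1 spans 0.0120 to 193 FPKM, whereas MSTRG.19138.1 spans 12.9 to 35.3 FPKM.

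Most members were detected everywhere. Of the 150, 118 (78.7%) were above 0 FPKM in all 6 libraries and 116 had at least 0.1 FPKM in each. A further 15 were above 0 in 5 libraries, 4 in 4, 12 in 3 and 1 in 2. Detection follows the level that chose the members, and among lncRNAs alone at their locus with a mean FPKM from 0.1 to under 1 it was 34.5% of 872. Among 153 lncRNAs of at least 1 FPKM from loci with several rows it was 81.7%. The number of members above 0 per library was 141, 140 and 138 in *nwgl* and 140, 141 and 137 in wild-type, so no library lacked many of them. An FPKM of 0 says that no fragment was assigned at this depth, and the number of fragments behind a value was not part of the tables.

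The 32 members listed at 0 somewhere fell into 3 sets. In 7, every *nwgl* library was at 0 and every wild-type library above it. In 6, every wild-type library was at 0. In the other 19, the zeros were scattered, and 15 of the 32 were at 0 in a single library. Zeros were found in *nwgl* libraries only for 14 members, in wild-type libraries only for 15, and in both for 3. MSTRG.18691.2 shows how a single zero enters the comparison (named after its values were seen). It had 6.47, 6.40 and 6.92 FPKM in *nwgl* leaves, against 2.27, 3.44 and 0 FPKM in wild-type leaves, and the log2 fold change of 2.83 had an adjusted p of 0.289 in limma.

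**Figure D2:**
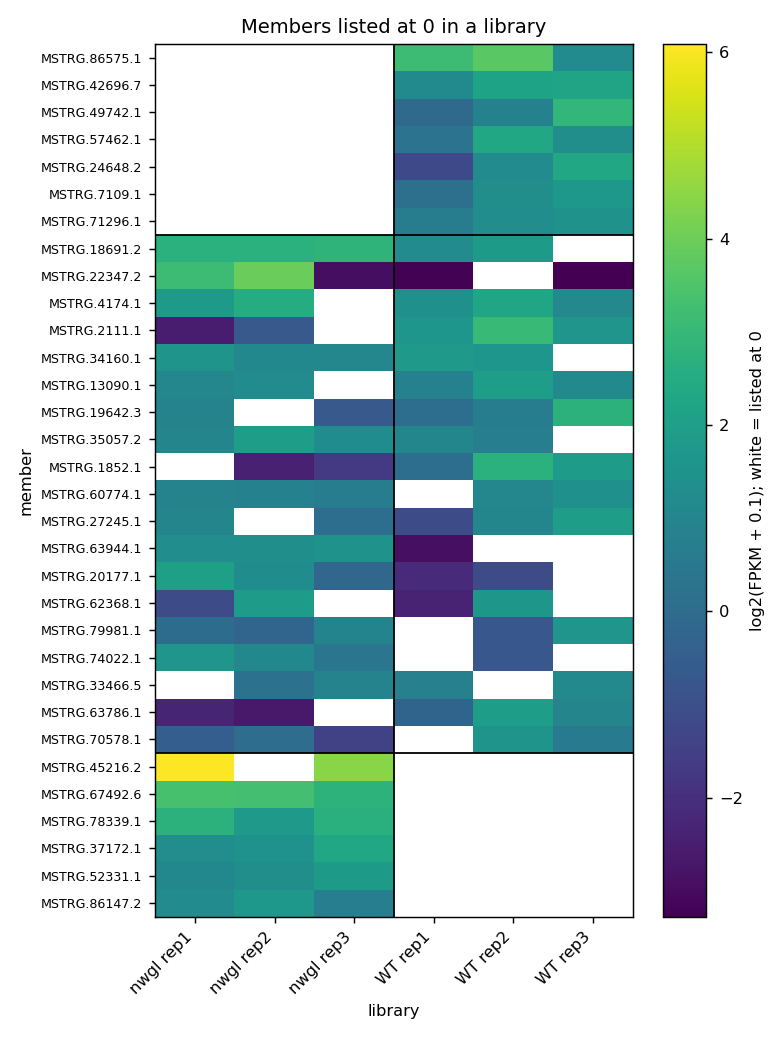
The 32 members listed at 0 FPKM in at least 1 library, 1 per line, by library, with *nwgl* on the left and wild-type on the right; colour is log2(FPKM + 0.1) and white is a listed 0. The top block holds the 7 members at 0 throughout *nwgl*, the bottom block the 6 at 0 throughout wild-type, and the middle block the 19 with scattered zeros.

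Libraries of 1 genotype differed widely in most members. The SD of log2(FPKM + 0.1) between libraries of a genotype, pooled over the genotypes, had a median of 0.807, with quartiles of 0.532 and 1.13. It was under 0.5 in 35 members, above 1 in 50 and above 2 in 8. Among the 118 members above 0 everywhere, the highest library exceeded the lowest by a median of 5.39-fold, by under 3-fold in 22 members and by over 10-fold in 30. The median SD was 0.840 in the 153 lncRNAs of like level from loci with several rows and 0.894 over all 2340 tested lncRNAs.

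The steadiest member between libraries of a genotype was MSTRG.51742.1, with an SD of 0.0875 log2 units. It had 3.20, 3.35 and 3.65 FPKM in *nwgl* leaves, against 0.663, 0.605 and 0.686 FPKM in wild-type leaves. Its genotypes were far apart for that spread, yet its log2 fold change of 2.22 (standard error 0.53) had an adjusted p of 0.0589 in limma, which sets the spread of each lncRNA in part from the others. With median-of-ratios scaling, robust eBayes, quantile normalization, a pseudocount of 0.01 or a filter at a mean FPKM of 1 it was called. MSTRG.1899.1 had 1.43, 1.73 and 1.77 FPKM in *nwgl* leaves, against 1.84, 2.02 and 2.58 FPKM in wild-type leaves. It was the most even over all 6 libraries, the highest exceeding the lowest by 1.80-fold. MSTRG.63944.1 and MSTRG.67492.6 were the others of the 4 with the lowest SD, at 0.197 and 0.214, but both were near or at 0 in wild-type leaves, where the SD is then set by the zeros. Between *nwgl* libraries alone the SDs were 0.115 for MSTRG.63944.1 and 0.302 for MSTRG.67492.6.

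The least steady were MSTRG.57741.1 and MSTRG.45216.2, with SDs of 3.80 and 3.55 log2 units. MSTRG.22347.2 followed at 2.65, with 8.66, 15.5 and 0.0323 FPKM in *nwgl* leaves, against 0.00673, 0 and 0.00340 FPKM in wild-type leaves. All *nwgl* values lay above all wild-type values, but *nwgl* replicate 3 was near zero, and the adjusted p was 0.163 in limma and 0.0215 without that library. The other fits that left out a library did not call MSTRG.22347.2. MSTRG.62368.1 had an SD of 2.64, with 0.354, 3.67 and 0 FPKM in *nwgl* leaves, against 0.0934, 3.09 and 0 FPKM in wild-type leaves. Its pattern over replicate numbers was alike in both genotypes, although the numbers are not known to pair plants.

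The spread was smaller between *nwgl* libraries than between wild-type libraries in 110 of 150 members, with median SDs of 0.471 log2 units in *nwgl* and 0.886 in wild-type. Over all tested lncRNAs the medians were 0.652 in *nwgl* and 0.859 in wild-type, and the SD was smaller in *nwgl* in 1431 of 2340. Without wild-type replicate 1 the members' medians were 0.471 in *nwgl* and 0.487 in wild-type, and the number with the smaller SD in *nwgl* was 83 of 150. The SD of fewer libraries tends to be lower, so these 2 medians are not on equal terms. With replicate 1 of both genotypes left out the medians were 0.493 in *nwgl* and 0.487 in wild-type, and 80 of 150 members had the smaller SD in *nwgl*. Of the 118 members above 0 everywhere, 51 had their lowest value in wild-type replicate 1, 27 in wild-type replicate 3, 3 in wild-type replicate 2, and 11, 14 and 12 in *nwgl* replicates 1, 2 and 3. The highest value was in wild-type replicate 2 for 53 of 150 members and in wild-type replicate 1 for 5. After median-of-ratios scaling the medians were 0.487 in *nwgl* and 0.755 in wild-type. Without wild-type replicate 2 or 3 the wild-type medians, again from fewer libraries than in *nwgl*, were 0.795 and 0.784, with 95 and 94 members of smaller SD in *nwgl*. Without *nwgl* replicate 1, 2 or 3 the *nwgl* medians, from fewer libraries than in wild-type, were 0.493, 0.353 and 0.344. In these settings 105, 117 and 120 members had the smaller SD in *nwgl*. The gap between the median SDs was smallest in the settings without wild-type replicate 1. The part of that library in the gap was not tested further.

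**Figure D3:**
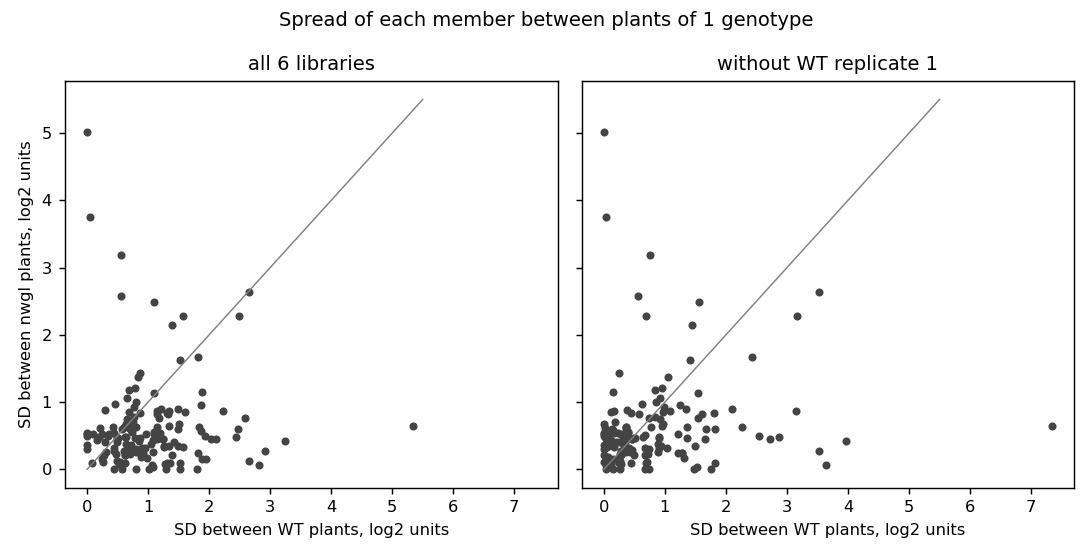
SD of log2(FPKM + 0.1) between *nwgl* libraries (vertical axis) against that between wild-type libraries (horizontal axis), 1 point per member, with all 6 libraries (left) and without wild-type replicate 1 (right); the line marks equal spread. With all libraries 110 of 150 points lie below the line, and 83 without that replicate, where the wild-type SD rests on fewer libraries than the *nwgl* SD.

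The genotype comparison asked which members differ between leaves with and without the glossy phenotype. In bulk leaf RNA, fewer cells of a type and less RNA per cell cannot be told apart. limma called 19 of the 150 members (12.7%), 8 higher and 11 lower in *nwgl*, where 2.78% of the 2340 tested lncRNAs were called, 1.92% higher and 0.855% lower. The genotypes did not overlap in 47 members (31.3%), 27 higher and 20 lower in *nwgl*, against 19.4% of tested lncRNAs, 10.9% higher and 8.50% lower. Without wild-type replicate 1 the split turned to 32 higher and 37 lower. With any other library left out, the higher ones stayed more numerous. Fewer libraries make non-overlap more frequent, and the share over all tested lncRNAs was not computed in these settings. An unadjusted p under 0.05 was reached by 41 members (27.3%), against 14.4% of tested lncRNAs. The mean over all libraries admits lncRNAs that reach 1 FPKM through 1 genotype alone, so the shares are given as a description of this selection, and nothing particular to the members is read from them.

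The members were also divided by whether both genotypes reached 1 FPKM, a division that the genotype difference itself helps to set and that is no test. In 98 members both genotypes had a mean of at least 1 FPKM, and limma with Benjamini-Hochberg adjustment called 0 of them, with 10 at an unadjusted p under 0.05. Their genotypes did not overlap in 17 (17.3%), the median log2 fold change was 0.07, and it was under 1 in size in 72. The lowest adjusted p of the 98 was 0.0719 in limma, for MSTRG.68304.1. It had 15.3, 16.8 and 8.56 FPKM in *nwgl* leaves, against 4.55, 1.61 and 1.21 FPKM in wild-type leaves, with all *nwgl* values higher and 2.59 ± 0.65 as log2 fold change and standard error. Without wild-type replicate 1 the log2 fold change was 3.13 and the adjusted p 0.0485 in limma. MSTRG.68304.1 was not called in any other fit that left out a library. Of the 9 other settings of the fit, 2 called MSTRG.68304.1. MSTRG.7363.1, also among the 98, was called in 2 of the 9, with an adjusted p of 0.0424 in limma after median-of-ratios scaling. The count of 0 therefore holds for the main fit, with a pseudocount of 0.1, no scaling and all 6 libraries. The other 52 members reached 1 FPKM in 1 genotype only. Of 25 that did so in *nwgl*, 8 were called, and of 27 that did so in wild-type, 11 were called. Of the 52, 30 did not overlap between genotypes and 12 had a log2 fold change under 1 in size.

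**Figure D4:**
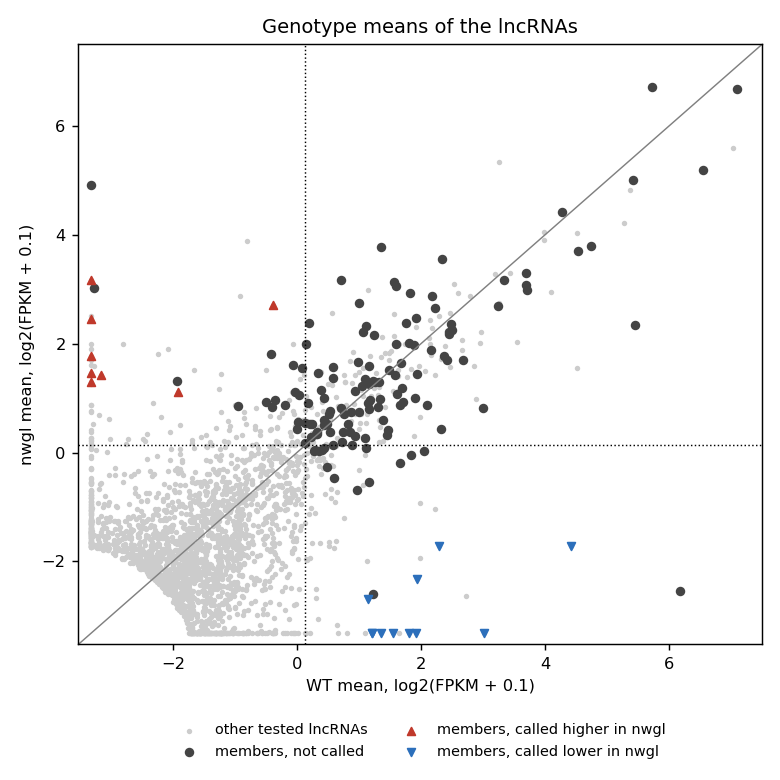
Mean of 3 *nwgl* libraries (vertical axis) against mean of 3 wild-type libraries (horizontal axis), both as log2(mean FPKM + 0.1), for the 150 members and the other tested lncRNAs; the diagonal marks equal means and dotted lines a mean of 1 FPKM. All 19 called members lie where only 1 genotype exceeds 1 FPKM. None of the 98 members above it in both genotypes was called in the main fit.

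Of the 19 called members, 12 were listed at 0 in all libraries of 1 genotype, so no fold is given for them. Among the 5 of these that were higher in *nwgl*, MSTRG.67492.6 had the largest values, with 10.1, 9.63 and 6.85 FPKM in *nwgl* leaves and 0 in each wild-type library (adjusted p 0.000789 in limma). MSTRG.78339.1 had 6.59, 3.28 and 6.19 FPKM in *nwgl* leaves and 0 in each wild-type library. MSTRG.37172.1 had 2.39, 2.70 and 4.86 FPKM in *nwgl* leaves and 0 in each wild-type library. These 3, with MSTRG.52331.1, were called in all 6 fits that left out a library. MSTRG.52331.1 had 2.05, 2.48 and 3.44 FPKM in *nwgl* leaves, and MSTRG.86147.2 had 2.25, 3.21 and 1.56 FPKM, both at 0 in wild-type. MSTRG.86147.2 was not called without *nwgl* replicate 1 or 2 (adjusted p 0.0517 and 0.0573 in limma).

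In the opposite direction, 7 called members were listed at 0 throughout *nwgl*. MSTRG.86575.1 had 0 FPKM in each *nwgl* library, against 8.77, 12.9 and 2.24 FPKM in wild-type leaves (adjusted p 0.00167 in limma). MSTRG.42696.7 had 0 in each *nwgl* library, against 2.19, 4.39 and 4.50 FPKM in wild-type leaves. MSTRG.71296.1 had 0 in each *nwgl* library, against 1.50, 2.37 and 2.74 FPKM in wild-type leaves. The last 2 were called in all 6 fits that left out a library. MSTRG.86575.1 was called in 2 of them, with adjusted p of 0.0517, 0.0667 and 0.0588 in limma without *nwgl* replicates 1, 2 and 3 and 0.0551 without wild-type replicate 1. The other 4 were MSTRG.49742.1, MSTRG.57462.1, MSTRG.7109.1 and MSTRG.24648.2, with wild-type means of 3.38, 2.84, 2.21 and 2.45 FPKM. Of the 6 fits without a library, 0 called MSTRG.49742.1, 2 MSTRG.57462.1, 1 MSTRG.7109.1 and 1 MSTRG.24648.2, and their highest adjusted p in limma was 0.159, 0.0904, 0.0776 and 0.224. MSTRG.49742.1 and MSTRG.24648.2 varied most among them, at 0.880, 1.69 and 7.57 FPKM for MSTRG.49742.1 and 0.331, 2.25 and 4.77 FPKM for MSTRG.24648.2 in wild-type leaves.

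The other 7 called members had some signal in both genotypes. MSTRG.66579.3 had 0.143, 0.220 and 0.250 FPKM in *nwgl* leaves, against 10.4, 30.2 and 22.9 FPKM in wild-type leaves. Its *nwgl* values were all far lower, and limma gave -6.01 ± 0.61 (log2 fold change ± standard error) with an adjusted p of 0.000878, and it was called in every fit that left out a library. It was the only called member among the 20 most abundant. MSTRG.63944.1 had 2.41, 2.50 and 2.82 FPKM in *nwgl* leaves, against 0.0356, 0 and 0 FPKM in wild-type leaves, and was also called in all 6 of those fits. MSTRG.17989.1 had 6.06, 9.87 and 3.32 FPKM in *nwgl* leaves, against 0.364, 1.17 and 0.463 FPKM in wild-type leaves. Its *nwgl* values were all higher, and limma gave 3.10 ± 0.66 (log2 fold change ± standard error) with an adjusted p of 0.0362, but none of the fits without a library called it, the adjusted p lying between 0.0750 and 0.196.

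The remaining 4 called members were listed at 0 in 1 or 2 libraries of the genotype in which they were lower. MSTRG.74022.1 had 2.91, 2.03 and 1.21 FPKM in *nwgl* leaves, against 0, 0.498 and 0 FPKM in wild-type leaves (log2 fold change 3.49, adjusted p 0.0487 in limma). MSTRG.2111.1 had 0.0751, 0.536 and 0 FPKM in *nwgl* leaves, against 3.05, 8.36 and 2.92 FPKM in wild-type leaves (log2 fold change -4.27, adjusted p 0.0195). MSTRG.1852.1 had 0, 0.0853 and 0.212 FPKM in *nwgl* leaves, against 0.989, 6.50 and 3.65 FPKM in wild-type leaves (log2 fold change -4.06, adjusted p 0.0226). In all 3 the genotypes did not overlap, and at most 1 of the 6 fits without a library called each. MSTRG.63786.1, the smallest of the 11 lower ones, had 0.101, 0.0627 and 0 FPKM in *nwgl* leaves, against 0.728, 3.74 and 1.88 FPKM in wild-type leaves (log2 fold change -3.64, adjusted p 0.0221 in limma). None of the 6 fits without a library called it, the adjusted p in limma lying between 0.0508 and 0.159.

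**Figure D5:**
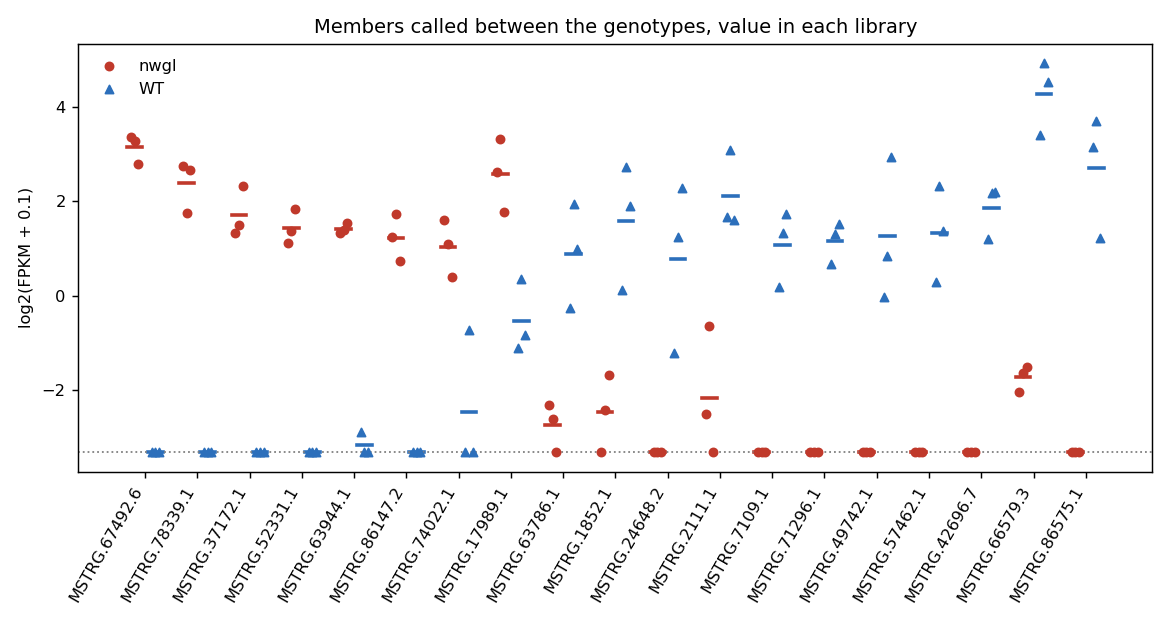
Level of the 19 called members in each library, as log2(FPKM + 0.1), in order of log2 fold change, with *nwgl* libraries as red circles and wild-type libraries as blue triangles; short bars are means of the log2 values over 3 libraries and the dotted line is an FPKM of 0. In 5 members every wild-type library and in 7 every *nwgl* library lies on that line.

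Fewer members were called whichever library was left out, as were fewer of all tested lncRNAs (11 to 26, against 65). Each such fit has fewer samples, so lost sample size and the part of a single library cannot be told apart. Without *nwgl* replicate 1, 2 or 3 there were 8, 9 and 10 members called, and without wild-type replicate 1, 2 or 3 there were 15, 13 and 10. Of these 8, 8, 9, 13, 12 and 10 were among the 19. Called members had smaller means than the most abundant ones, with a median of the mean FPKM of 1.66 and a highest of 10.7. Another 22 members had an unadjusted p under 0.05 without a call, 16 higher and 6 lower in *nwgl*. The 4 of these with the lowest adjusted p were MSTRG.51742.1, MSTRG.20177.1, MSTRG.68304.1 and MSTRG.7363.1 (all but the first named after their values were seen). MSTRG.7363.1 had 5.03, 4.93 and 5.39 FPKM in *nwgl* leaves, against 0.321, 1.39 and 1.44 FPKM in wild-type leaves, a log2 fold change of 2.40 and an adjusted p of 0.102 in limma. Of the 9 other settings of the fit, 5 called MSTRG.51742.1, 3 MSTRG.20177.1, 2 MSTRG.68304.1 and 2 MSTRG.7363.1.

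The same counts were taken in the most similar lncRNAs. Of the 153 of like level from loci with several rows, 7 (4.58%) were called and 21 (13.7%) did not overlap. Among 22 lncRNAs of like level from the excluded stretch of locus numbers, 5 (22.7%) were called and 9 did not overlap. Among 872 lower lncRNAs alone at their locus, 12 (1.38%) were called. The median size of the log2 fold change was 0.79 in the members, 0.55 in the lncRNAs from loci with several rows and 0.72 over all tested lncRNAs. These groups were set apart by level and by number of rows, and no test of the differences between them was run.

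A total of 20 of the 150 members were on the list of differentially expressed lncRNAs in the study's supplement, 9 there as up-regulated and 11 as down-regulated. The whole list holds 148 of the 4459 lncRNAs. The choice of members by mean FPKM bears on this count as on the calls, so nothing particular to the members is read from it. The list was drawn from the same libraries, so it is no independent evidence. The 20 held all 19 called members and MSTRG.22347.2, and each differed in the listed direction. The supplement also lists, for each, the annotated genes within its window around the lncRNA, 5 to 51 per member and 440 in all. Of these, 288 were tested in the gene table, and 12 (4.17%) were called, 8 higher and 4 lower in *nwgl*, against 4.89% of all 24332 tested genes. At an unadjusted p under 0.05 the share was 16.3% of the neighbours and 16.2% of all genes.

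Called genes lay beside 8 of the 20 members, and differed in both directions. Beside the members lower in *nwgl*, 6 of 142 tested neighbours were called higher and 1 lower. Beside the members higher in *nwgl*, 2 of 146 were called higher and 3 lower. Over all genes the paper, with its own test, reports more up-regulated than down-regulated genes in *nwgl*. The share of all tested genes called in each direction is not given here. No link between the direction of a lncRNA and that of its neighbours is therefore read from these counts. MSTRG.86575.1, at 0 in *nwgl*, had 3 called neighbours, all higher in *nwgl*. One of them, *Bol043763*, had 52.5, 65.7 and 44.6 FPKM in *nwgl* leaves, against 5.43, 15.0 and 7.25 FPKM in wild-type leaves (log2 fold change 2.66, adjusted p 0.0120 in limma). MSTRG.66579.3, lower in *nwgl*, had *Bol042150* higher (log2 fold change 4.59) and *Bol042168* lower (-2.03) beside it. Beside MSTRG.67492.6, at 0 in wild-type, *Bol033808* was lower in *nwgl* (-3.94), with 0, 0.0717 and 0.377 FPKM in *nwgl* leaves, against 2.33, 5.34 and 2.13 FPKM in wild-type leaves. The genes were named after their values were seen, and the tables give no names for them.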

How the data were processed

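Leaf RNA of 3 *nwgl* and 3 wild-type samples was sequenced from directional total RNA libraries. The authors aligned the reads to the cabbage genome (Bolbase) with HISAT2, assembled transcripts with StringTie 1.3.1, kept as lncRNAs those that passed filters on length, exon number, FPKM and coding potential, and deposited FPKM values for 4459 lncRNA transcripts and 31497 genes. Groups follow the sample titles. Fragment counts were not analysed here, so depth is known only relatively and counting error was not computed; p-values measure the spread between these samples.

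LncRNAs and genes were fitted separately with limma 3.58.1 (lmFit, eBayes with trend) in R 4.3.3 on log2(FPKM + 0.1), for a mean FPKM of at least 0.1 (2340 lncRNAs, 24332 genes), with Benjamini-Hochberg adjustment over all tested features. Features were called when the adjusted p was under 0.05 and the log2 fold change was 1 or more in size. For a single lncRNA the exact two-sided permutation test of 3 libraries against 3 has a smallest p of 0.1. The fit was tested on simulated data. Summaries used Python 3.11.15, numpy 2.4.6 and pandas 2.3.3, figures matplotlib 3.10.9, and robust eBayes statmod 1.5.0.

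The members and lists were chosen with earlier results of these data known. Named members are the 10 of highest mean, at most 10 called in each direction, those at 0 throughout a genotype, the 4 steadiest and 4 least steady, the 3 on either side of the level threshold and at most 5 from the study's list, with *Bol018504* as label check. Alternatives were other pseudocounts, filters, scalings, eBayes options, a replicate block, other member rules and leaving out each library.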

Additional observations from a re-analysis of the deposited data

How the results depend on the processing

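With a pseudocount of 1, 22 lncRNAs and 11 members were called, against 65 and 19, and the median SD of members was 0.517, against 0.807. With only the 325 lncRNAs of a mean FPKM of at least 1 tested, 35 were called. Without a library, 11 to 26 lncRNAs and 8 to 15 members were called, and 51 to 69 members did not overlap. Fewer libraries make non-overlap more frequent for any lncRNA, and its share over all tested lncRNAs was not computed without a library. In these settings 83 to 120 members had the smaller SD in *nwgl*, with unequal numbers of libraries per genotype. The median SD was 0.533 (without wild-type replicate 1) to 0.876. With members of at least 0.5 FPKM, 208 of 269 (77.3%) were above 0 in all libraries, against 118 of 150 (78.7%). With at least 2 FPKM, 67 of 76 were, 6 (7.89%) were called and 26 (34.2%) did not overlap. With at least 1 FPKM in each genotype, 0 of 98 were called in the main fit and 17 (17.3%) did not overlap. Over all tested lncRNAs with all 6 libraries, 2.78% were called and 19.4% did not overlap. The other settings of the fit, and the excluded locus numbers added, gave 16 to 23 called members. Log2 fold changes of some uncalled members turned sign. Over the fits without a library they ranged from -0.77 to 0.014 for MSTRG.52576.1 (positive without wild-type replicate 2), from -0.79 to 0.021 for MSTRG.55088.1 (positive without wild-type replicate 1), from -0.35 to 0.68 for MSTRG.40869.1 (negative without wild-type replicate 3 and, at -0.0090, without *nwgl* replicate 2), from -0.89 to 1.997 for MSTRG.62368.1 (negative without *nwgl* replicate 2 and, at -0.025 and -0.50, without wild-type replicates 1 and 3), from -0.56 to 1.03 for MSTRG.11996.1 (positive without wild-type replicate 3 and, at 0.33, without *nwgl* replicate 3), from -0.11 to 1.06 for MSTRG.9086.2 (negative without wild-type replicate 2) and from -0.49 to 0.00051 for MSTRG.77177.1 (positive without *nwgl* replicate 3). MSTRG.55088.1 had 0.074 with quantile normalization, and MSTRG.11996.1 0.0078 with it and 0.055 with a pseudocount of 0.01. The cause was not tested. Leaving out wild-type replicate 1 or 2 moved the median log2 fold change of all tested lncRNAs to -0.15 or 0.24, against 0.01.

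Same-numbered samples deviated together by correlations of only 0.005, 0.059 and 0.094, so the numbers were not taken to pair plants. With the replicate block 56 lncRNAs and 20 members were called, 19 of them called without it. Chosen after seeing the data were the members with transcript number 1 only (14 of 121 called), the counts of the smaller SD with scaling (101) or without a library, and the neighbouring genes with scaled values (14 called).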

Other observations

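Outside the excluded stretch, members were spread over the whole range of locus numbers. They were 3.89 to 8.98% of the lncRNAs alone at their locus in each block of 10000 numbers below 80000. In the last block they were 6 of 52 (11.5%), where the rule admits members only from 85000. Only 6 pairs of members had locus numbers at most 10 apart, and in 3 of these both were highest in the same library. MSTRG.28346.1 and MSTRG.28353.1 were both highest in wild-type replicate 2, at 6.63 and 3.04 FPKM. MSTRG.70577.1 and MSTRG.70578.1 were also highest there, both at 2.88 FPKM, but MSTRG.70578.1 was listed at 0 in wild-type replicate 1, where MSTRG.70577.1 had 1.21 FPKM. The third pair was MSTRG.57741.1 and MSTRG.57743.1, described above. The pairs were chosen after the values were seen, and the positions behind the numbers were not analysed here.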
